A study of Mus musculus with 84 samples.

Results

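The calcium/calmodulin-dependent kinases (CaM kinases) were followed as 10 genes of the 55401 gene IDs counted: Camk2a, Camk2b, Camk2d and Camk2g, which encode the 4 forms of CaMKII, Camk1, Camk1d and Camk1g of the CaMKI group, Camk4, and the kinases that act above CaMKI and CaMKIV, Camkk1 and Camkk2. The family was picked because Camk2a was much higher 24 h and 48 h after DOI in these same mice, so the values of Camk2a at those times, and any comparison that uses them, are given as a description with no test, and the other 9 belong to the set by family alone. All 10 genes passed the low-count filter that left 17941 genes. When calcium rises in a neuron it binds calmodulin, and calcium-loaded calmodulin switches these kinases on. CaMKII assembles into large rings, can stay active by phosphorylating itself, and is known at the postsynaptic density of excitatory synapses for its part in synaptic plasticity. The CaMKKs phosphorylate CaMKI and CaMKIV, and CaMKIV acts in the nucleus on the transcription factor CREB.

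The RNA came from NeuN+ nuclei, the neuronal fraction of a nuclear sort, of the frontal cortex of 12-week-old 129S6/SvEvTac mice. A vehicle group was compared with mice sampled 24 h, 48 h and 7 days after an injection of DOI (2,5-dimethoxy-4-iodoamphetamine), an agonist of serotonin 2A receptors. Each group had 4 mice, and the 2 libraries of a mouse were summed, which left 16 mice as the replicates. No genetic change was listed for any group. Because all DOI groups were set against the same 4 vehicle mice, the 3 comparisons with vehicle are not independent of each other.

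Levels are given as CPM, the usual unit of counts scaled to library size, here with TMM factors. Total counts per vehicle mouse were 9151680 to 11517452. The mice at 24 h had 6441396 to 8090559 counts, those at 48 h 5834248 to 7344355 and those at 7 days 6972577 to 12354785, so every vehicle mouse had more counts than every mouse at 24 h and 48 h. These are reads assigned to exons, not all reads sequenced. An 18S ribosomal RNA pseudogene feature took 0.00694% to 0.0101% of the counts in vehicle mice, 0.328% to 1.57% at 24 h and 0.523% to 1.66% at 48 h, and 0.00834%, 0.633%, 0.00607% and 0.474% in the 7-day mice 1 to 4. Mitochondrial transcripts took 0.0171% to 0.0701% in vehicle mice. Their share was 0.0621% to 0.101% in the 24 h group, 0.108% to 0.268% in the 48 h group and 0.0413%, 0.13%, 0.021% and 0.114% in the 7-day mice. These shares moved with the groups, and their part in the results below was not tested beyond the fits that carry them as covariates. The neuronal label was met by Snap25, a presynaptic protein gene, at a mean of 4101 CPM in vehicle mice, which fell by 0.58 and 0.62 on the log2 scale at the 2 early times (adjusted p = 0.0395 and 0.0257, edgeR). Rbfox3, the gene of NeuN itself, rose by 0.81 and 0.82 (adjusted p = 0.0103 and 0.00775). The summed level of 3 endothelial markers was at most 5.03 CPM in any mouse, and that of 6 astrocyte markers 739.9 to 811 CPM in vehicle mice with 795 to 1154 CPM at 24 h and 647 to 1114 CPM at 48 h, and none of the 5 astrocyte or 4 microglia markers tested passed. Other lists moved in part. Map2, a neuronal marker, rose by 0.55 at 48 h (adjusted p = 0.04, edgeR). Of 6 markers of inhibitory neurons, Gad1 fell by 0.84 and 0.60 (adjusted p = 0.0135 and 0.0458), Gad2 fell by 0.63 at 24 h (adjusted p = 0.0352) and Slc32a1 rose by 1.10 and 1.46 (adjusted p = 0.0443 and 0.0104, all edgeR). Of 5 oligodendrocyte markers Mbp fell by 0.83 and Cldn11 rose by 1.80 at 24 h (adjusted p = 0.0367 and 0.0445, edgeR), with none at 48 h. Of 6 striatal neuron markers tested Drd1 fell by 0.90 and Ppp1r1b by 1.04 at 24 h (adjusted p = 0.0272 and 0.0484, edgeR), and Rgs9 rose by 1.77 at 48 h (adjusted p = 0.0414, edgeR). The part of these markers in the results was not tested. The values are of bulk nuclei, in which fewer cells of a type and less RNA per cell cannot be told apart.

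In vehicle mice the family was led by Camk1 and Camk4 once levels were divided by exon length. On the scale of CPM per kilobase of exon, Camk1 stood highest at 55.9 ± 4.78 (SD, n = 4 for all values in this paragraph), followed by Camk4 at 40.0 ± 4.69, and neither overlapped the gene next below it. A run of neighbours that overlapped one another mouse by mouse came next. It began with Camkk1 at 27.7 ± 4.01, Camk1g at 25.0 ± 4.85 and Camk2a at 24.1 ± 4.22. It went on through Camk2b at 18.2 ± 2.83, Camk2g at 13.2 ± 1.69 and Camkk2 at 12.6 ± 1.68. Camk1d at 10.2 ± 1.08 and Camk2d at 8.68 ± 1.54 were lowest, and these 2 overlapped each other. Camk2a, often the most abundant CaMKII transcript of forebrain tissue, therefore ranked 5 of 10 in this nuclear RNA. The plot of the 10 levels by mouse is in CPM, not divided by length, and so does not show this order.

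**Figure D1:**
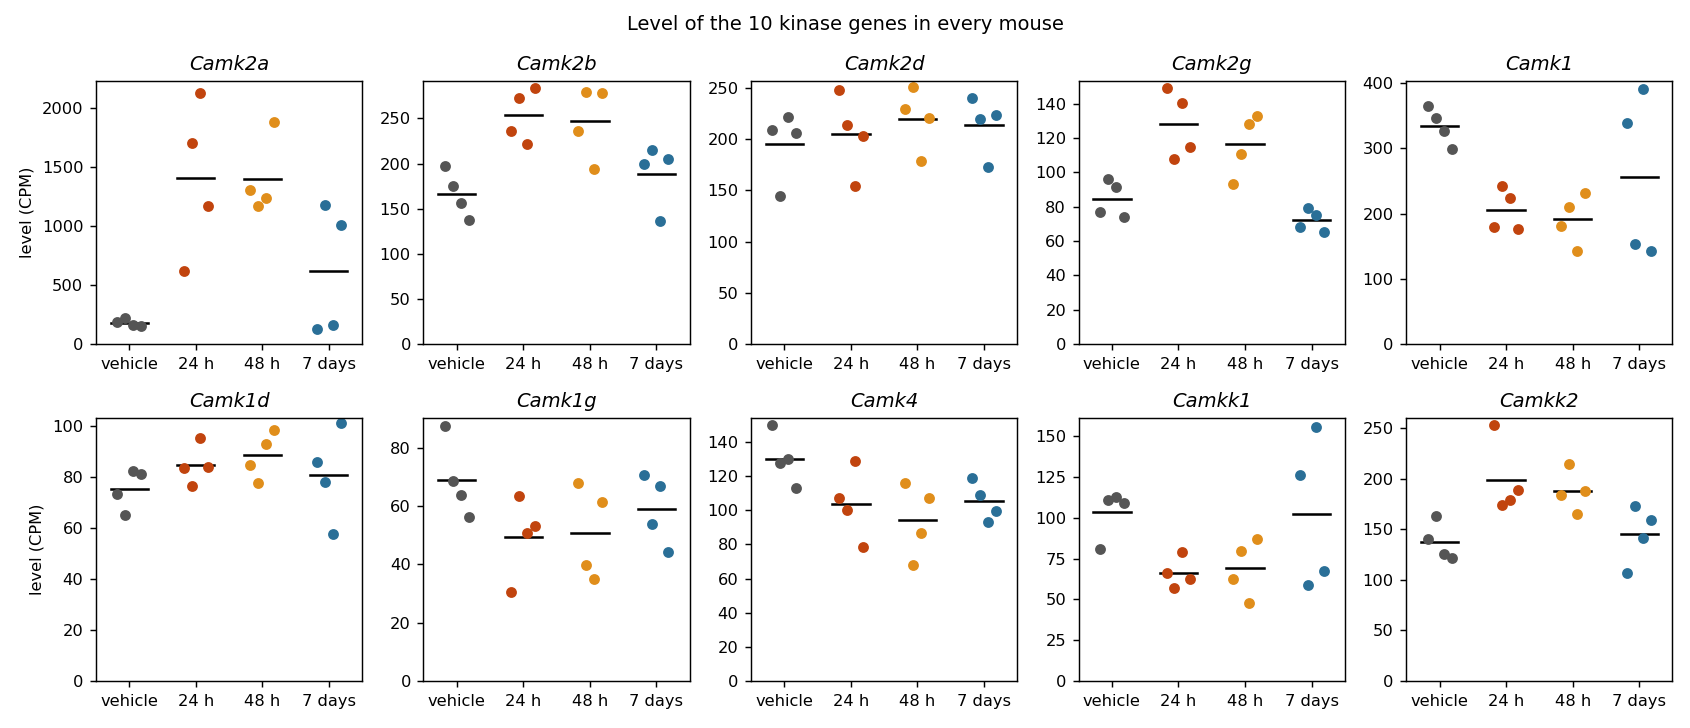
Level of each kinase gene (CPM, vertical axis, starting at 0) in every mouse of the vehicle, 24 h, 48 h and 7-day groups, with a line at the group mean. Camk2a lies between 151 and 222 CPM in vehicle mice and between 622 and 2126 CPM in the mice at 24 h and 48 h, while at 7 days 2 mice lie at 128 and 164 CPM and 2 at 1176 and 1005 CPM.

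Camk2a (ENSMUSG00000024617, chr18:60925618-60988152, plus strand; all positions of genes are those of the GRCm38 annotation in the counts) encodes the alpha form of CaMKII, which is made mainly by excitatory forebrain neurons. Its level in vehicle mice 1 to 4 was 185, 222, 162 and 151 CPM. At 24 h it was 622, 1701, 2126 and 1172 CPM, and at 48 h it was 1304, 1167, 1239.9 and 1876 CPM. Every mouse at these times was above every vehicle mouse, and the mouse nearest to vehicle, 24 h mouse 1, was still well clear of the highest vehicle mouse. The group means were 180.1 ± 31.5 CPM for vehicle, 1405 ± 652 at 24 h and 1397 ± 324 at 48 h (SD, n = 4), and the fitted folds were 7.8 and 7.76. As log2 fold changes these were 2.96 at both times, values that chose the family and carry no test. Adding the 18S pseudogene share to the fit as a covariate lowered them to 1.8 and 1.61, and the mitochondrial share lowered them to 2.54 and 1.81. Of 4 markers of excitatory neurons only Tbr1 passed at these times, higher at both, and Slc17a7 had log2 differences of -0.80 and -0.77 (adjusted p = 0.0616 and 0.0594, edgeR). Summed over the 4 the level was 260.1 to 314 CPM for vehicle, 229.7 to 285 at 24 h and 221 to 276 at 48 h. The 2 libraries of a mouse gave nearly the same Camk2a level, with a ratio of the higher to the lower of 1.04 at the median and 1.2 at most.

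At 7 days Camk2a fell into values far apart, 128, 1176, 164 and 1005 CPM in mice 1 to 4. Mice 1 and 3 lay within or below the vehicle range, mice 2 and 4 lay close to or within the range of the earlier times, and no mouse lay in between. The mean of 618 ± 550.3 CPM (SD, n = 4) therefore describes none of the 4 mice. Against vehicle the log2 fold change was 1.78 (SE 0.53) and did not pass (adjusted p = 0.122, edgeR, with its quasi-likelihood test and p-values adjusted over 17941 genes, as throughout unless another tool is named). It passed when 7-day mouse 1 or 7-day mouse 3 was left out, and over the 8 fits that each left out 1 mouse the adjusted p ran from 0.0121 to 0.493. The call was also made with no low-count filter (adjusted p = 6.34e-06, edgeR) and not with DESeq2 (0.06) or limma voom (0.319). The choice of the family used these same vehicle mice. The p-values of Camk2a at 7 days are therefore not independent of that choice, and a pass here is no separate support. Mice 2 and 4 were also the 7-day mice with the higher 18S and mitochondrial shares given above. Their summed striatal neuron markers were 1449 and 977 CPM, against 539 and 323 CPM in mice 1 and 3 and 217 to 336 CPM in vehicle mice.

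The other CaMKII genes differed among themselves. Camk2b (ENSMUSG00000057897, chr11:5969644-6066362, minus strand), whose beta form carries an actin-binding segment, was 197, 175, 156 and 137 CPM in vehicle mice. It was 236, 273, 222 and 284 CPM at 24 h, 236, 279, 194 and 278 CPM at 48 h, and 199.8, 215, 136 and 205 CPM at 7 days. At 24 h all 4 mice were above all vehicle mice, while at 48 h mouse 3 fell just under the highest vehicle mouse and at 7 days the ranges overlapped. Camk2b rose at 24 h by 0.61 (SE 0.18, adjusted p = 0.0235, edgeR) and at 48 h by 0.57 (SE 0.18, adjusted p = 0.0271, edgeR) on the log2 scale. The 7-day difference of 0.18 (95% interval, as for all intervals here, -0.17 to 0.54) did not pass.

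Camk2g (ENSMUSG00000021820, chr14:20734875-20794088, minus strand), the gamma form, known for carrying calmodulin toward the nucleus, was 76.8, 96.1, 91.3 and 74.0 CPM in vehicle mice. It was 149, 108, 140.2 and 115 CPM at 24 h, 93.0, 111, 128 and 133 CPM at 48 h, and 68.1, 79.3, 75.5 and 65.2 CPM at 7 days. The 24 h mice were clear of vehicle, 48 h mouse 1 lay within the vehicle range, and the 7-day mice all lay below every mouse at 24 h and 48 h. Camk2g rose at 24 h by 0.60 (SE 0.17, adjusted p = 0.0167, edgeR) and at 48 h by 0.46 (SE 0.17, adjusted p = 0.0448, edgeR). From 24 h to 7 days its log2 difference was -0.83 (SE 0.17), with an unadjusted p of 9.44e-05 in edgeR that became 0.131 after adjustment, and from 48 h to 7 days it was -0.69 (SE 0.17, adjusted p = 0.13, edgeR). Unlike Camk2a, Camk2g was within a narrow range in all 4 of the 7-day mice. Both of these differences passed in DESeq2 and without 7-day mouse 2 in edgeR, and the first also passed without 7-day mouse 4.

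Camk2d (ENSMUSG00000053819), the delta form, did not pass at any time. Its levels were 209, 144, 221 and 206 CPM for vehicle, 248, 214, 154 and 203 CPM at 24 h, 229, 251, 178 and 220.2 CPM at 48 h, and 239.9, 219, 173 and 223 CPM at 7 days. The groups overlapped throughout. The log2 differences from vehicle were 0.07 (interval -0.30 to 0.43), 0.17 (-0.19 to 0.53) and 0.13 (-0.23 to 0.50). A difference that does not pass does not show that the levels were equal.

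With each level divided by exon length, Camk2a made up 36.6%, 42.3%, 34.5% and 36.2% of the CaMKII RNA in vehicle mice. It made up 58.1%, 80.2%, 84.3% and 73.0% at 24 h and 77.5%, 72.6%, 77.2% and 80.5% at 48 h. The 7-day mice were at 28.4%, 77.5%, 38.9% and 76.0%. Camk2a thus went from a minority to the larger part of this CaMKII level per exon length in every mouse at 24 h and 48 h, which restates its level and is no separate evidence. The ratio of the Camk2a level to the Camk2b level, each per annotated exon length, was 1.33 ± 0.171 for vehicle, 6.89 ± 3.67 at 24 h and 6.98 ± 1.4 at 48 h (SD, n = 4). It is no count of transcripts, since the lengths of the forms expressed were not measured. In the 7-day mice the ratio was 0.781, 6.69, 1.47 and 5.99. CaMKII alpha and beta subunits share the same rings.

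Leaving Camk2a out asked whether the remaining forms also changed in proportion. Among the 3 remaining genes Camk2b held 45.3% ± 4.26 for vehicle and 48.9% ± 5.26, 49.0% ± 3.93 and 49.6% ± 4.21 at the 3 times. Camk2d held 21.7% ± 4.29 for vehicle and 15.9% ± 2.3, 17.8% ± 2.04 and 22.9% ± 1.43. Camk2g held 33.0% ± 3.84 for vehicle and 35.2% ± 5.58, 33.2% ± 5.51 and 27.5% ± 4.74 (SD, n = 4). None of the 9 comparisons passed a two-sided exact permutation test over the 70 splits of 8 mice. The smallest p was 0.0857 by that exact test, for Camk2d at 24 h, with 0.36 after Benjamini-Hochberg adjustment over the 9, and the design allows no exact p under 0.0286. With that floor a single comparison, even with its mice fully apart, could not pass after adjustment by itself. The lack of calls therefore does not show that the shares were equal.

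**Figure D2:**
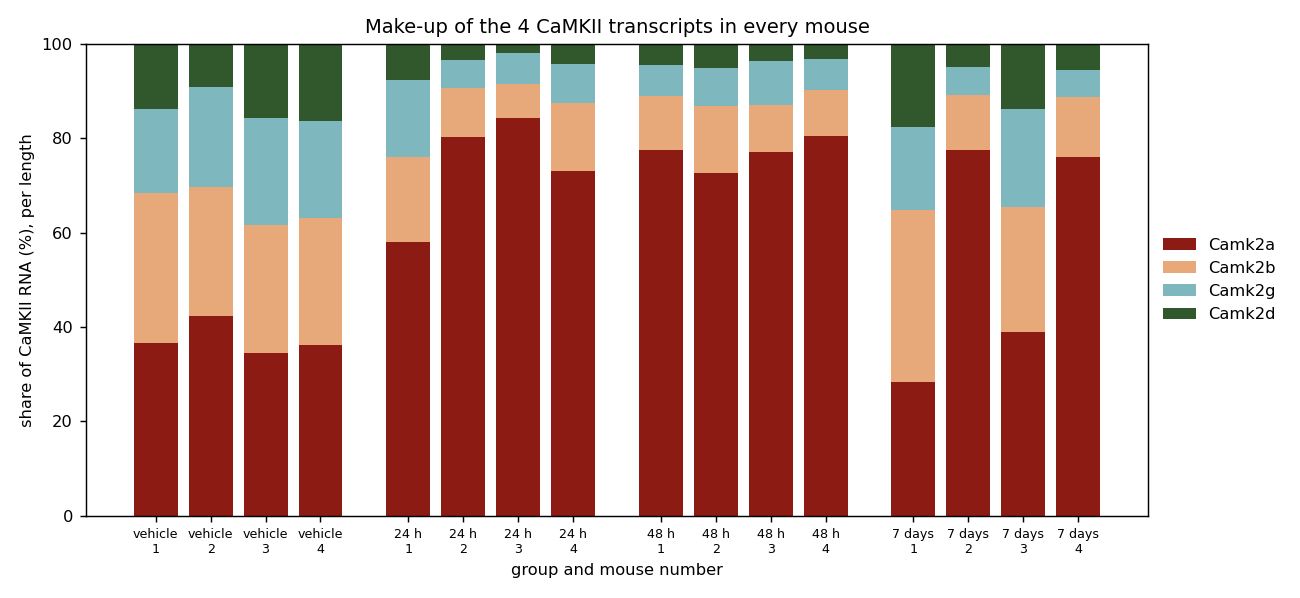
Share of each CaMKII gene in the summed CaMKII level (percent, from CPM per kilobase of exon), 1 bar per mouse, grouped by vehicle, 24 h, 48 h and 7 days. Camk2a fills 34.5% to 42.3% of the vehicle bars and 58.1% to 84.3% of the bars at 24 h and 48 h, while the 7-day bars differ from each other.

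The 2 kinases above CaMKI and CaMKIV had differences of opposite sign at 24 h and 48 h, of which that of Camkk2 at 24 h passed the test. With the 18S share as a covariate that contrast was not kept: Camkk1 was then near no difference, at -0.05 at 24 h and 0.12 at 48 h on the log2 scale (adjusted p = 0.953 and 0.9, edgeR), and with the mitochondrial share it was at -0.45 and -0.01. Camkk2 (ENSMUSG00000029471, chr5:122731170-122779409, minus strand), which also phosphorylates AMP-activated protein kinase, was 140.2, 163, 126 and 122 CPM in vehicle mice. It was 253, 174, 179 and 189 CPM at 24 h, 184, 215, 165 and 188 CPM at 48 h, and 107, 173, 141 and 159 CPM at 7 days. Every mouse at 24 h and 48 h was above every vehicle mouse, although 48 h mouse 3 was so by a narrow margin, and the 7-day mice spread across the vehicle range. Camkk2 rose at 24 h by 0.53 (SE 0.18, adjusted p = 0.0399, edgeR). The 48 h difference of 0.45 (SE 0.18) did not pass (adjusted p = 0.0663, edgeR), nor did that of 0.07 at 7 days (interval -0.28 to 0.43). The 48 h difference passed with DESeq2 (adjusted p = 0.0414) and limma voom (0.00678).

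Camkk1 (ENSMUSG00000020785, chr11:73019008-73042073, plus strand), its paralog, was 81.1, 111, 113 and 109 CPM in vehicle mice. It was 66.4, 57.1, 79.2 and 62.7 CPM at 24 h, 62.6, 79.5, 47.7 and 86.9 CPM at 48 h, and 126, 59.1, 156 and 67.7 CPM at 7 days. The 24 h mice were below all vehicle mice, though only just below vehicle mouse 1, and 48 h mouse 4 was above that mouse. At 7 days mice 1 and 3 were above all vehicle mice and mice 2 and 4 below all of them. The log2 differences were -0.64 (SE 0.27, adjusted p = 0.0856, edgeR) at 24 h and -0.58 (SE 0.27, adjusted p = 0.105, edgeR) at 48 h, neither of which passed. Both passed as lower with limma voom (adjusted p = 0.00549 and 0.0167), and that at 24 h also with no low-count filter (0.04, edgeR).

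The 100 bases before the RefSeq start of each CaMKK gene are shown so that this pair of paralogs can be compared, whose differences at 24 h had opposite signs (that of Camkk1 was -0.05 with the 18S share in the fit). They come from RefSeq's promoter table on GRCm38.p6, in which 7 of the 10 genes were found. The Camkk2 stretch is chr5:122779411-122779510 on the minus strand and the Camkk1 stretch is chr11:73018888-73018987 on the plus strand. Neither holds an annotated exon of any gene in the counted annotation. Both are written 5′ to 3′, and capitals mark a GC box, searched as GGGCGG on both strands.
Camkk2: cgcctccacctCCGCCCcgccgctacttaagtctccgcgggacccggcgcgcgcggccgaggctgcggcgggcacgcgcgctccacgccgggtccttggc
Camkk1: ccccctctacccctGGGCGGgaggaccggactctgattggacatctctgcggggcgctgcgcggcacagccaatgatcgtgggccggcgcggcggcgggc
The stretch of Camkk2 is 80% G or C and that of Camkk1 74.0%, where the median of all 32851 windows of this length was 55.0%. Each holds 1 GC box, at bases 89 to 84 before the start of Camkk2 (reverse strand) and 86 to 81 before that of Camkk1 (forward strand). A GC box was found in 24.7% of all windows. The half-site of a CRE, the element bound by CREB, was searched as TGACG on both strands, does not overlap the GC box in its letters, and was in neither stretch, against 10.5% of all windows.

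Camk1 (ENSMUSG00000030272, chr6:113334124-113343984, minus strand), the most abundant kinase gene of the family per length in vehicle mice, was the only tested member called lower than vehicle in the main fit, at 48 h only. CaMKI acts in the cytoplasm and is known in neurite and axon growth. Its levels were 365, 346, 327 and 298 CPM for vehicle, 179, 242, 224 and 177 CPM at 24 h, and 181, 210.4, 142 and 231 CPM at 48 h. At 7 days they were 339, 153, 390.3 and 143 CPM. All mice at 24 h and 48 h were below all vehicle mice, and at 7 days mice 1 and 3 were at or above the vehicle range and mice 2 and 4 below it. Camk1 fell by 0.81 on the log2 scale at 48 h (SE 0.27, adjusted p = 0.0324, edgeR), while its difference of -0.70 at 24 h (SE 0.27) did not pass (adjusted p = 0.0642, edgeR). The 48 h call was kept in 2 of the 8 fits without 1 mouse. With the 18S or the mitochondrial share as a covariate the 48 h difference was -0.26 or -0.14 (adjusted p = 0.788 or 0.892, edgeR). The 24 h difference passed with DESeq2 (adjusted p = 0.0472), limma voom (0.0115) and no low-count filter in edgeR (0.0192). Camk1 shares 232 exon bases with Ogg1 on the opposite strand, and reads there are left out by the default counting.

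The other CaMKI genes and Camk4 did not pass at any time. Camk1g (ENSMUSG00000016179, chr1:193346346-193370298, minus strand) ranged from 56.1 to 87.5 CPM in vehicle mice, 30.5 to 63.4 at 24 h and 35.0 to 67.8 at 48 h, with log2 differences of -0.48 (interval -0.97 to 0.01) and -0.44 (-0.93 to 0.06). Camk1d (ENSMUSG00000039145, chr2:5293457-5714515, minus strand) ranged from 64.9 to 82.1 CPM in vehicle mice, 76.5 to 95.3 at 24 h and 77.7 to 98.3 at 48 h, with log2 differences of 0.17 (-0.17 to 0.51) and 0.23 (-0.11 to 0.57). Camk4 (ENSMUSG00000038128, chr18:32934931-33191228, plus strand), the nuclear kinase, was 150.2, 128, 130.1 and 113 CPM for vehicle, 107, 100, 129 and 78.5 CPM at 24 h and 116, 68.1, 86.6 and 107 CPM at 48 h. Its lowest mice at 24 h and 48 h were below the vehicle range and its highest were within it. The log2 differences of Camk4 were -0.33 (SE 0.19, adjusted p = 0.208, edgeR) and -0.46 (SE 0.19, adjusted p = 0.0693, edgeR), and the second passed without 48 h mouse 1 (the lowest adjusted p over the 8 such fits was 0.0429) and with limma voom (adjusted p = 0.0173). At 7 days these 3 genes ranged from 44.1 to 70.8 CPM (Camk1g), 57.6 to 101 CPM (Camk1d) and 93.3 to 119 CPM (Camk4).

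Counted over the family, 3 of the 9 members open to test passed at 24 h (33.3%), all higher, where 24.2% of all genes tested passed (13.8% higher, 10.4% lower). At 48 h it was again 3 of 9, Camk2b and Camk2g higher and Camk1 lower, where 30.1% of all genes passed (16.8% higher, 13.3% lower). These shares are near the background, so the number of calls sets the 9 genes apart from other genes at neither time. The split by direction changed with the tool: DESeq2 called 4 at each time, adding Camk1 as lower at 24 h and Camkk2 as higher at 48 h, where it called 30.2% and 35.3% of all genes. Limma voom called 5 and 6, of which Camk1 and Camkk1 at both times and Camk4 at 48 h were lower, where it called 40.3% and 43.4% of all genes. With no filter the 2 calls at 24 h (Camk1 and Camkk1) and the 1 at 48 h (Camk1) were all lower, where 4746 and 5649 of 36503 genes passed. The median log2 difference of the 9 was 0.07 at 24 h and 0.17 at 48 h, against 0.03 and 0.02 over all genes, and the median size was 0.53 and 0.46, against 0.56 and 0.61. In 5 of the 9 genes the ranges of the 24 h and vehicle groups were apart, which held for 35.7% of all genes, and in 2 of the 9 those of the 48 h and vehicle groups were, which held for 38.1%.

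At 7 days against vehicle none of the 10 passed in edgeR, where 0.0% of all genes passed (Camk2a is included, though these vehicle mice also served to choose the family). None had ranges apart (5.85% of all genes), and 1 of the 10 had an unadjusted p under 0.05, where 16.8% of all genes did. DESeq2, which called 796 genes there, called none of the 10, and neither did limma voom. In comparisons between times the other 9 were counted. Between 24 h and 48 h none of the 9 passed (0.0% of all genes) and none had an unadjusted p under 0.05 (1.88% of all genes), and DESeq2 and limma voom called none. None of the 9 had ranges apart between these times (1.96% of all genes). From 48 h to 7 days none passed in edgeR (0.0% of all genes), 3 of the 9 had an unadjusted p under 0.05 (16.5% of all genes), 1 had ranges apart (Camk2g, 5.72% of all genes) and DESeq2 called 1. From 24 h to 7 days none passed in edgeR (0.00557% of all genes), 4 of the 9 had an unadjusted p under 0.05 (14.2% of all genes), 3 had ranges apart (Camk2b, Camk2g and Camkk2, all lower at 7 days, 5.13% of all genes) and DESeq2 called 1. That 1 was Camk2g in both, where DESeq2 called 434 and 365 genes in all.

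The calls of the members were close to the threshold and moved with single mice. Camk2g at 24 h was lost without vehicle mouse 1 or 4 (largest adjusted p of the 8 fits 0.0553, edgeR). Camk2b at 24 h was lost without vehicle mouse 2, 3 or 4 or 24 h mouse 2 or 4 (largest 0.0777), and Camkk2 at 24 h without vehicle mouse 1, 3 or 4 or 24 h mouse 1 or 4 (largest 0.13). At 48 h Camk2b was lost without vehicle mouse 2, 3 or 4 or 48 h mouse 2 or 4 (largest 0.084). Camk2g at 48 h was lost without any mouse other than 48 h mouse 1 (largest 0.135), and Camk1 was kept only without vehicle mouse 4 or 48 h mouse 4 (largest 0.0975). With the 18S share as a covariate none of the 9 passed at either time, and neither did any other gene (0.0% of all genes at both times). The log2 differences at 24 h and 48 h were then 0.52 and 0.46 for Camk2b, 0.77 and 0.67 for Camk2g, 0.67 and 0.63 for Camkk2 and -0.23 and -0.26 for Camk1, so those of Camk2g and Camkk2 were larger than without the covariate. With the mitochondrial share only Camk2b at 24 h passed, where 12.6% of all genes did, and 0.0% did at 48 h. The differences were then 0.63 and 0.62 for Camk2b, 0.52 and 0.21 for Camk2g, 0.53 and 0.45 for Camkk2 and -0.48 and -0.14 for Camk1. For these 4 genes the directions held, while the size for Camk1 was smaller by more than 1.5 times at both times under the 18S share, as it was for Camk1 and Camk2g at 48 h under the mitochondrial share. Leaving out 24 h mouse 1 and 48 h mouse 1 together, the mice with the fewest genes detected in their groups, gave 2 calls at 24 h and 3 at 48 h. The share of all genes passing in that fit was not counted, so these calls cannot be set against a background. The direction of the 6 differences was the same in all 8 fits without 1 mouse, and the plot of fold changes shows the intervals of the tested differences.

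**Figure D3:**
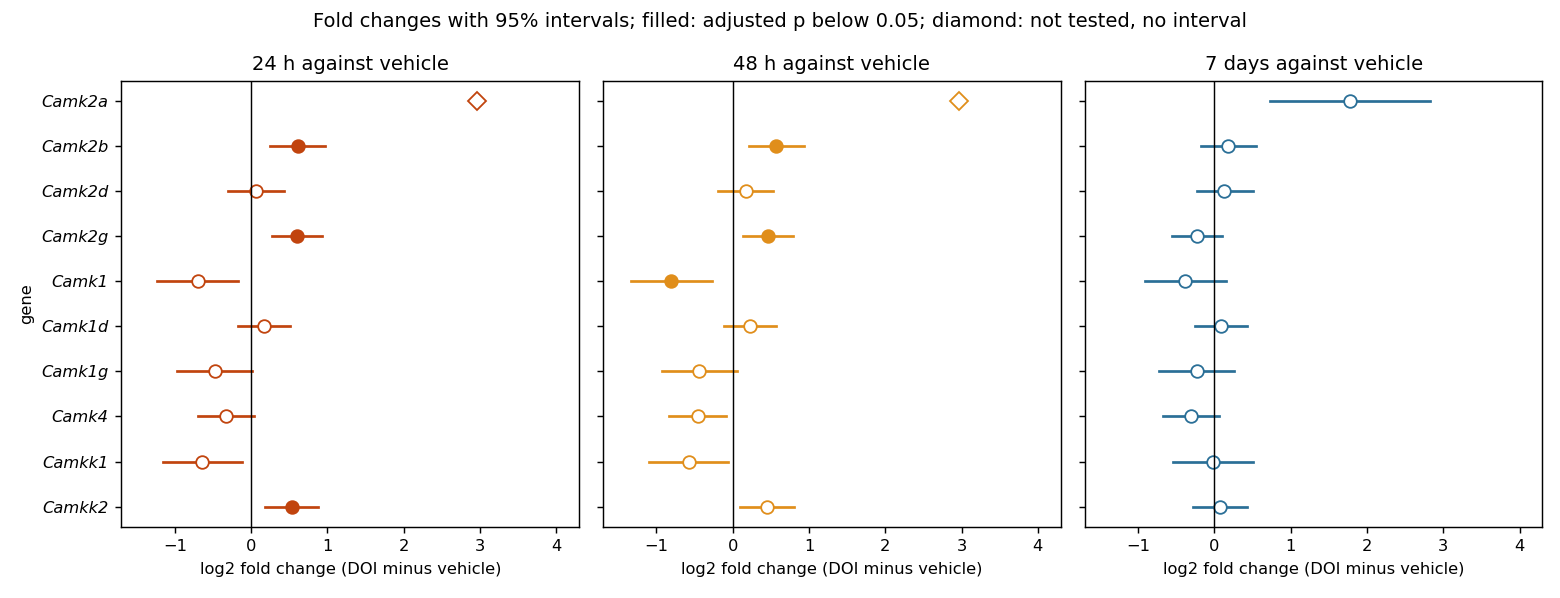
Log2 fold change (DOI minus vehicle, horizontal axis) with its 95% interval for each kinase gene at 24 h, 48 h and 7 days. Filled circles have an adjusted p below 0.05 in edgeR, and diamonds, drawn without an interval, mark Camk2a where it was not tested. Camk2a lies at 2.96 at both early times, Camk2b and Camk2g lie to the right of 0 at both, and Camk1 lies to the left at both and passes at 48 h.

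Across the 16 mice the log2 levels of Camk2b (Pearson r = 0.783), Camkk2 (0.732) and Camk2g (0.612) went with those of Camk2a, and those of Camk1 (-0.782) and Camkk1 (-0.779) ran against it. Camk2d was near no relation (0.0674). These are descriptions over all 16 mice, which share groups, total counts and the RNA shares given above. The 5 genes outside the family with the most similar profile were Kit (r = 0.989), Rgp1 (0.982), Ppm1h (0.982), Ncstn (0.981) and Syvn1 (0.98). Kit, a receptor tyrosine kinase gene, had a mean of 6.99 ± 0.9 CPM in vehicle mice and then of 78.4 ± 36.1, 71.6 ± 31.0 and 30.5 ± 31.6 CPM at the 3 times (SD, n = 4). Ppm1h, a protein phosphatase gene, had means of 42.0 ± 2.88, 199.7 ± 45.4, 200.2 ± 23.4 and 90.6 ± 64.4 CPM. Syvn1, which encodes a ubiquitin ligase of the endoplasmic reticulum, had means of 13.5 ± 0.943, 126 ± 33.4, 114 ± 25.2 and 49.4 ± 43.4 CPM. These profiles were chosen for their likeness to Camk2a, so the shared pattern is no separate result.

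Some annotated features lie inside the introns of the kinase genes. They had few counts, and several passed the low-count filter through the DOI groups where they were high, so their values are a description with no test. Camk2d spans 250025 bases (chr3:126596302-126846326, plus strand, GRCm38) and holds 7 features on its own strand that share no exon base with it. Their summed level was 1.89, 2.73, 5.6 and 4.38 CPM in vehicle mice. It was 11.9, 9.67, 12.7 and 18 CPM at 24 h and 20.7, 21.6, 11.4 and 11.7 CPM at 48 h, and at 7 days 4.15, 16, 3.15 and 25.5 CPM. Every mouse at 24 h and 48 h was above every vehicle mouse, while the exons of Camk2d itself overlapped between all groups. Gm42515, the feature with the most counts, had 11 to 21 counts per vehicle mouse. It had 21 to 63 in the 24 h mice, 30 to 62 in the 48 h mice and 14 to 120 in the 7-day mice. Gm43009, picked after its values were seen, had 0 to 6 in vehicle mice, 13 to 24 at 24 h and 11 to 25 at 48 h. The other 5 had at most 15 counts in any vehicle mouse and at most 24 in any mouse at 24 h or 48 h. At 7 days mice 2 and 4 were again the high ones. Reads of these features and of unspliced Camk2d RNA cannot be told apart.

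**Figure D4:**
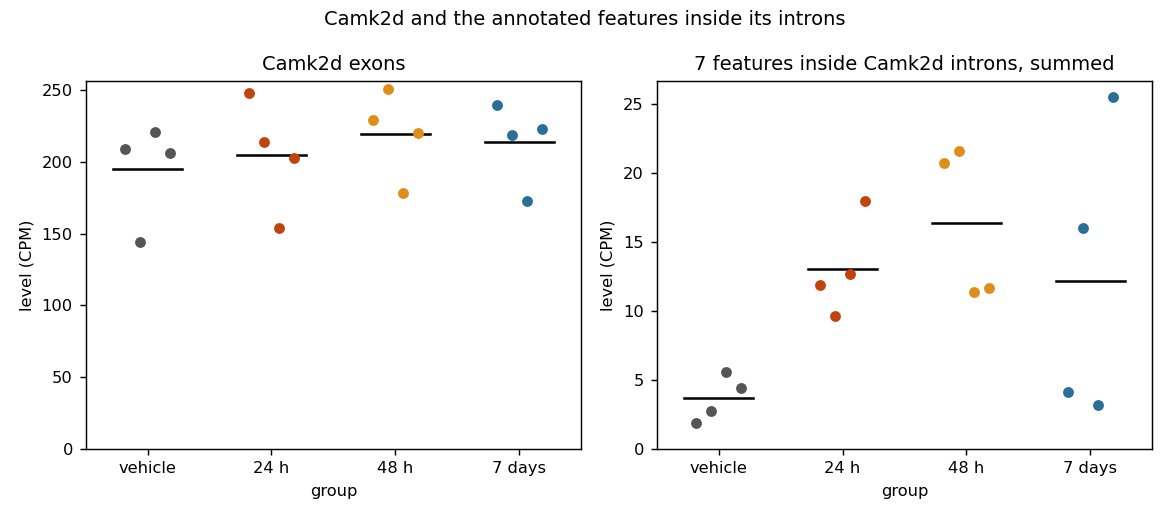
Level (CPM, vertical axes starting at 0) of the exons of Camk2d, left, and of the 7 same-strand features inside its introns summed, right, in every mouse of the 4 groups, with a line at the mean. The exons stay between 144 and 251 CPM in all groups, and the features lie at 1.89 to 5.6 CPM in vehicle mice and 9.67 to 21.6 CPM at 24 h and 48 h.

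Features in the other hosts were few. Mir6982, a microRNA locus in an intron of Camk2a (chr18:60958073-60958140), had 6 to 16 counts in vehicle mice. It had 9 to 65 in the 24 h mice, 10 to 51 in the 48 h mice and 18 to 30 in the 7-day mice. Reads of Mir6982 and of unspliced Camk2a RNA cannot be told apart. Gm22814 lies on the opposite strand within Camk4 (chr18:33004663-33004766) and had 0 to 1 counts in vehicle mice, 6 to 14 at 24 h and 6 to 17 at 48 h. The counting used no strand, so transcripts of the 2 strands cannot be told apart there.

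Beyond the kinases, a list of 47 genes covered calmodulin, proteins that hold or oppose it, related kinases, the phosphatase calcineurin and targets of the kinases. The list was chosen with earlier results of these data known. All 47 were tested. At 24 h 18 passed (38.3%), 10 higher and 8 lower, where 24.2% of all genes passed, and at 48 h 23 passed (48.9%), 14 higher and 9 lower, where 30.1% passed. Among genes with at least 10 CPM in at least 4 mice the background was higher, at 32.6% and 39.2%. With that filter 21 and 24 genes of the list passed. At 7 days none passed in edgeR (0.0% of all genes), and DESeq2 called 3. The list's median log2 difference was 0.27 at 24 h and 0.25 at 48 h, against 0.03 and 0.02 over all genes. The median size of its differences was 0.53 and 0.58, against 0.56 and 0.61 over all genes, so they were no larger at the median than those of other genes. Without single mice the 24 h count fell to as low as 10 (without vehicle mouse 1 or vehicle mouse 2) and was 11 without 24 h mouse 1 or 24 h mouse 4, and the 48 h count fell to as low as 15 (without vehicle mouse 1). Without 24 h mouse 1 and 48 h mouse 1 together the count was 9 at 24 h and 21 at 48 h. The share of all genes passing was not counted in these fits, so a lower count cannot be told apart from fewer calls over all genes. With the 18S share as a covariate no gene of the list passed at either time (0.0% of all genes), and with the mitochondrial share 9 passed at 24 h and 0 at 48 h (12.6% and 0.0% of all genes).

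The inhibitors of CaMKII were among the genes that rose. Camk2n1, which encodes a peptide that binds and blocks active CaMKII, was 126, 155, 178 and 155 CPM for vehicle, 312, 225, 306 and 262 CPM at 24 h and 314, 244, 212 and 377 CPM at 48 h. All mice at both times were above all vehicle mice. It rose by 0.85 (SE 0.24, adjusted p = 0.0181, edgeR) and 0.90 (SE 0.24, adjusted p = 0.0111, edgeR), and the 24 h call was lost without vehicle mouse 1 (adjusted p = 0.063). Camk2n2, its paralog, was far lower, 4.22 ± 1.84 CPM for vehicle and 13.2 ± 3.26 CPM at 48 h (SD, n = 4), and rose by 1.64 (SE 0.40, adjusted p = 0.00731, edgeR). Its 24 h call (log2 difference 1.21, adjusted p = 0.037, edgeR) rested on a mouse at 18.7 CPM, 24 h mouse 1, and without it reached the largest p of the 8 fits (0.192). It was also lost without vehicle mouse 1, 2 or 4. Of the 4 genes in this group 3 rose at both times, where 13.8% and 16.8% of all genes were called higher: these 2 and Ppm1f, a phosphatase that acts on CaM kinases. Ppm1e did not pass.

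Calmodulin itself is encoded by more than a single gene. Calm2 was 2388, 2375, 2319.9 and 2216 CPM for vehicle, 1088, 1219, 1824 and 1677 CPM at 24 h and 1282, 1062, 1601 and 1361 CPM at 48 h, and all mice at both times were below all vehicle mice. It fell by 0.68 on the log2 scale at 24 h (SE 0.20, adjusted p = 0.0203, edgeR) and by 0.81 at 48 h (SE 0.20, adjusted p = 0.00711, edgeR). The 24 h call was lost without 24 h mouse 1 or mouse 2. Calm3, at 58.7 ± 8.74 CPM for vehicle (SD, n = 4), had log2 differences of 0.56 and 0.57 and did not pass (adjusted p = 0.107 and 0.0884, edgeR). Among the 3 calmodulin-binding buffers of the list, Gap43, a growth cone protein gene, fell by 0.77 at 48 h, where 13.3% of all genes were called lower (adjusted p = 0.018, edgeR), a call lost without vehicle mouse 1 or 48 h mouse 3, and Nrgn and Pcp4 did not pass.

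Calcineurin, the phosphatase that calmodulin switches on beside these kinases, was represented by 7 genes, those of its subunits and of its Rcan regulators. Of these genes of calcineurin and its regulators, 4 fell at 24 h and 3 at 48 h, where 10.4% and 13.3% of all genes were called lower, and none was called higher. Ppp3r1, the gene of its calcium-binding regulatory subunit, was 685, 656, 778 and 876 CPM for vehicle, 173, 239, 341 and 147 CPM at 24 h and 261, 139, 128 and 292 CPM at 48 h. The groups were far apart, and Ppp3r1 fell by 1.74 (SE 0.39, adjusted p = 0.00557, edgeR) and fell by 1.87 (SE 0.39, adjusted p = 0.0031, edgeR). At 7 days its mice were at 633, 209, 392 and 146 CPM, all under the lowest vehicle mouse, and the difference of -1.12 did not pass (adjusted p = 0.153, edgeR). It passed there without 7-day mouse 1 (adjusted p = 0.0148, edgeR). Rcan1, an inhibitor of calcineurin, fell by 1.54 (SE 0.34, adjusted p = 0.00551, edgeR) and by 1.61 (SE 0.34, adjusted p = 0.00357, edgeR), from 87.9 ± 13.5 CPM to 30.3 ± 4.37 and 28.9 ± 6.93 CPM (SD, n = 4). Of the 3 genes of catalytic subunits, Ppp3cc fell at both times, by 1.08 (SE 0.33, adjusted p = 0.0267, edgeR) and by 0.98 (SE 0.33, adjusted p = 0.0336, edgeR), from 60.5 ± 3.37 CPM to 28.7 ± 12.2 and 30.6 ± 10.6 CPM (SD, n = 4), with no overlap of mice. The other catalytic genes, Ppp3ca and Ppp3cb, were more abundant and did not pass at either time. Their log2 differences were 0.31 and 0.16 for Ppp3ca and 0.43 and 0.41 for Ppp3cb.

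A group of 8 genes around the CaMKKs and CaMKIV held their targets and the genes that act with these, together with Stk11, which is no target but a kinase that acts beside Camkk2. Of the 8, 3 rose at 24 h (37.5% called, against 24.2% of all genes), and at 48 h 4 rose and 1 fell (62.5%, against 30.1%). Crtc1, a coactivator of CREB, was 51.2, 55.0, 49.3 and 46.3 CPM for vehicle, 97.9, 209, 184 and 195 CPM at 24 h and 179, 182, 112 and 177 CPM at 48 h, with no overlap. It rose by 1.76 (SE 0.27, adjusted p = 0.00159, edgeR) and 1.69 (SE 0.27, adjusted p = 0.00155, edgeR). Stk11, the gene of the LKB1 kinase, which phosphorylates AMP-activated protein kinase as Camkk2 does, rose by 1.25 and 1.32 (adjusted p = 0.00203 and 0.00155, edgeR), from 10.4 ± 1.41 CPM to 24.6 ± 2.99 and 25.9 ± 4.27 CPM (SD, n = 4). It was at 20.7 ± 3.39 CPM at 7 days, all 4 mice above vehicle, and did not pass there (adjusted p = 0.096, edgeR), though it did without 7-day mouse 1 or mouse 3. Prkaa1, which encodes a catalytic subunit of AMP-activated protein kinase, fell by 0.81 at 48 h (adjusted p = 0.0159, edgeR), a call lost without vehicle mouse 4 or 48 h mouse 2, and Prkaa2, which encodes the other, rose by 0.80 and 0.76 (adjusted p = 0.0218 and 0.0226, edgeR). Creb1 did not pass.

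Partners and substrates of CaMKII at the synapse counted 10 genes, of which 3 rose and 2 fell at 24 h (50.0%, against 24.2% of all genes), and 4 rose and 2 fell at 48 h (60.0%, against 30.1%). Grin2b, the gene of the NMDA receptor subunit to which CaMKII docks, was 393, 297, 310.2 and 289.7 CPM for vehicle, 893, 1097, 944 and 994 CPM at 24 h, 956, 1002, 985 and 1053 CPM at 48 h, and 329.7, 949, 286 and 939 CPM at 7 days. It rose by 1.61 (SE 0.30, adjusted p = 0.00308, edgeR) and 1.63 (SE 0.30, adjusted p = 0.00209, edgeR). At 7 days Grin2b was high in mice 2 and 4, as Camk2a was, and its difference of 0.96 did not pass (adjusted p = 0.13, edgeR), though it did without 7-day mouse 1 or mouse 3. Actn4 and Rgs14 fell at both times, Actn4 by 1.26 and 1.49 and Rgs14 by 1.19 and 1.53. Their 24 h calls (adjusted p = 0.0299 and 0.0447, edgeR) were the less stable: that of Actn4 was kept only without vehicle mouse 3 or 24 h mouse 2 or 3 and that of Rgs14 was lost without any 1 of the 8 mice, with adjusted p of up to 0.0831 and 0.12, while both 48 h calls were kept in all 8. Gria1, the AMPA receptor subunit gene whose product CaMKII phosphorylates, did not pass (log2 differences 0.08 and 0.25).

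Among 12 related kinases 2 passed at 24 h (16.7%, below the 24.2% of all genes) and 4 at 48 h (33.3%, near the 30.1% of all genes). Mylk, the gene of myosin light chain kinase, rose at both times from a low level, 1.2 ± 0.575 CPM for vehicle to 5.65 ± 5.29 and 6.94 ± 2.39 CPM (SD, n = 4), by 2.20 and 2.50 (adjusted p = 0.016 and 0.00707, edgeR), and the 24 h call was lost without vehicle mouse 2 or 24 h mouse 1. Phkg2, a catalytic subunit gene of phosphorylase kinase, fell by 0.81 and 0.74 (adjusted p = 0.0325 and 0.0398, edgeR), calls that were kept only without 24 h mouse 2 or 3 and only without 48 h mouse 4, with adjusted p of up to 0.0857 and 0.0979. Dclk2, a doublecortin-like kinase gene, rose at 48 h by 0.64 (adjusted p = 0.0417, edgeR), which was lost without any 1 of the 8 mice. The plot of the pathway list shows these beside other genes of the list.

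**Figure D5:**
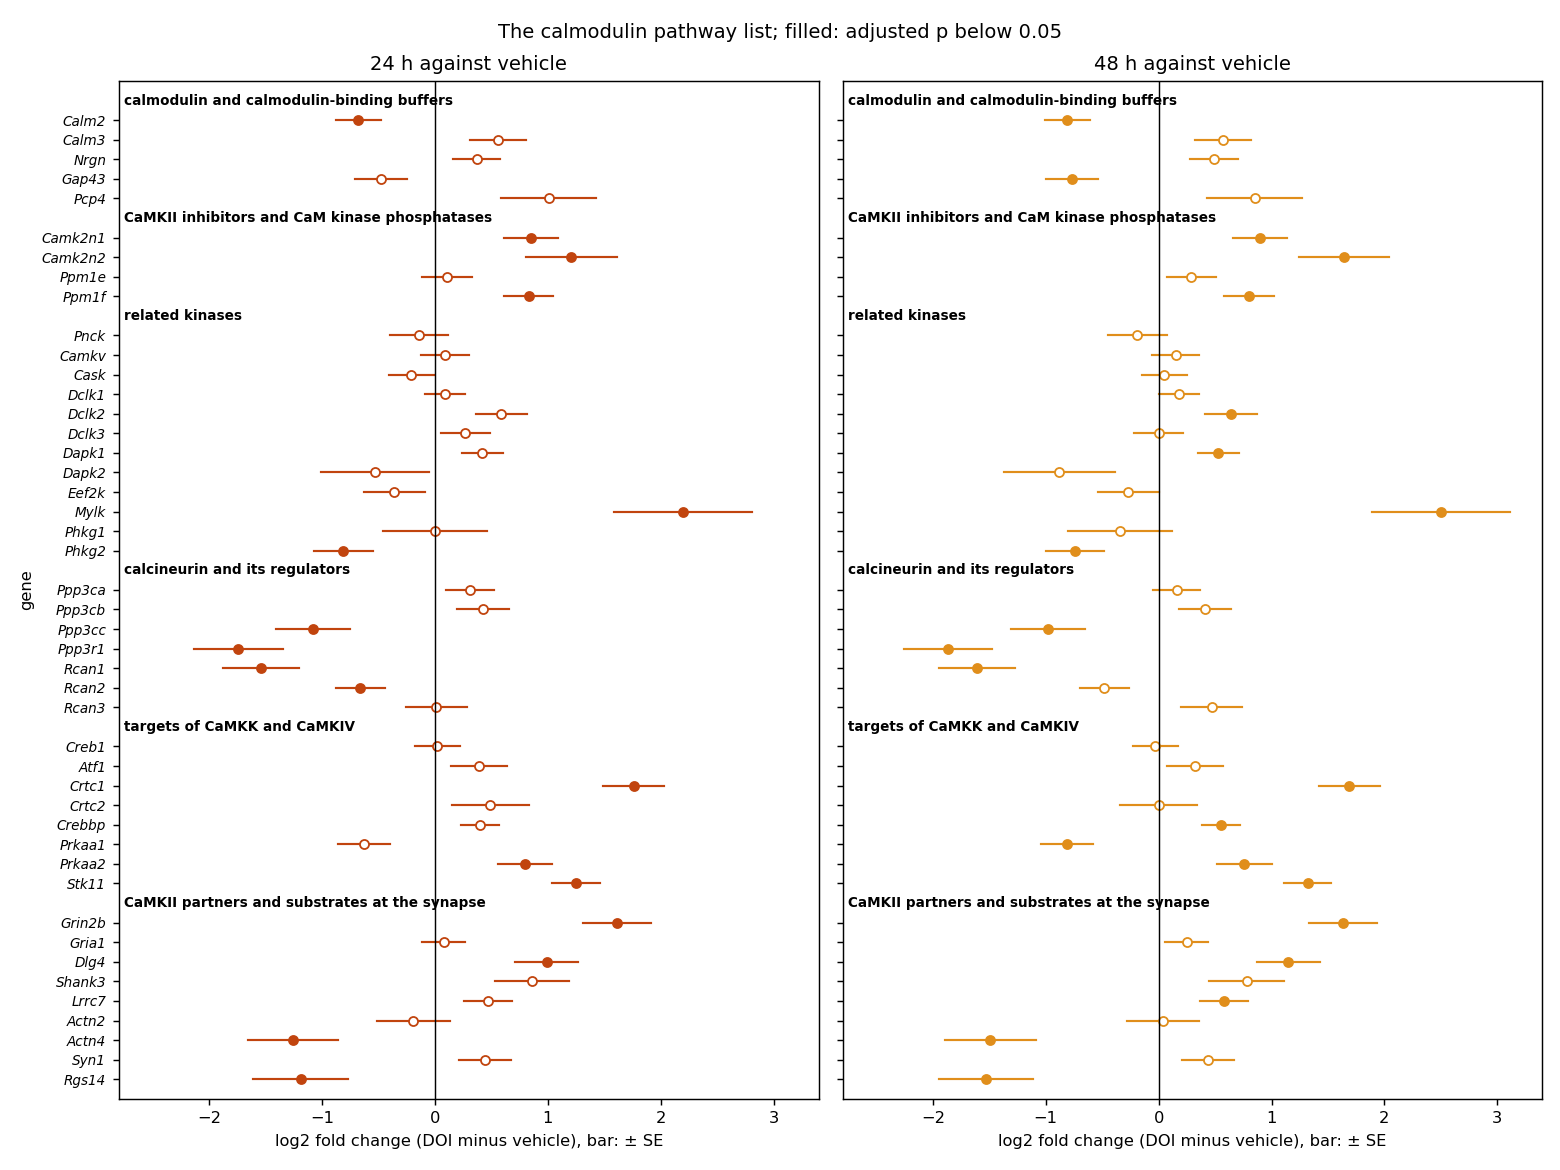
Log2 fold change (DOI minus vehicle, horizontal axis, bar ± SE) of the genes of the calmodulin pathway list at 24 h and 48 h, grouped by role, without those not reported here. Filled circles have an adjusted p below 0.05 in edgeR. All filled genes of the group of calcineurin and its regulators lie left of 0, and all filled genes of the CaMKII inhibitor and CaM kinase phosphatase group right of 0.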

How the data were processed

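RNA was measured in 32 libraries from 16 mice. The authors deposited unnormalized read counts. Reads were assigned to exons and summed by Ensembl gene ID (GRCm38 annotation) with featureCounts v2.0.0, per the file headers, with no option for strand, multi-mapping or overlapping features. Per the submitters' processing notes the build was mm10 and Trim Galore 0.6.5 and Bowtie2 2.4.1 were used, with no role given. Per the labels' protocols libraries were made by SMART-seq2 and Nextera XT, without molecular identifiers, so counting floors (3 counts, per mouse) cover counting error only. H3K27ac samples were not analysed here. For 3 mice the header carries another mouse number than the label, with the same group, and the label was used.

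The 2 libraries of a mouse were summed. Genes were filtered with filterByExpr, scaled with TMM and fitted with edgeR 4.0.16 (R 4.3.3) by its quasi-likelihood test in 1 model holding all 4 groups. P-values were adjusted by Benjamini-Hochberg over 17941 genes, with a threshold of 0.05. The script was tested on simulated data. Standard errors are the size of the log2 fold change over the root of its F statistic, and 95% intervals are 1.96 standard errors. CPM uses the TMM library sizes. CaMKII shares use CPM per 1000 bases of exon and exact permutation tests.

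The members, the 47-gene list and the tests were chosen with earlier results of these data known. From each role group of the list the text names the 2 genes of largest change in each direction at 48 h among those past the threshold, plus Calm2, Calm3, Camk2n1 and Camk2n2. Ppm1e, Ppm1f, Nrgn, Pcp4, Ppp3ca, Ppp3cb, Ppp3cc, Prkaa2, Creb1 and Gria1 were named after their values were seen. Some genes of the list that this rule names are not reported here, though counts over the list include them. The 5 genes most like Camk2a have the highest Pearson r among tested genes with an official symbol. Alternatives were DESeq2 1.42.0, limma 3.58.1 voom with a quality weight for each mouse (called limma voom here), other scaling, filters and thresholds, single libraries, 2-group fits, a replicate block, 18S and mitochondrial shares as covariates, each mouse left out and, chosen after seeing the data, 24 h mouse 1 and 48 h mouse 1 left out together. A mouse number marks no animal shared between groups.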

Additional observations from a re-analysis of the deposited data

Results flagged for a closer look

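In each of the 40 sets of 4 mice formed by the 10 kinase genes and 4 groups, the mouse farthest out was set against the spread of the rest. In 1 set it stood apart: Camkk1 in vehicle mouse 1 was 81.1 CPM, where the nearest other vehicle mouse had 109 CPM. About 2 such sets are expected by chance among 40.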

How the results depend on the processing

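Among the members and the list genes named by rule, no direction of a called difference was reversed under an alternative. Ppm1f, Ppp3cc, Prkaa2 and the cell markers were not followed under the alternatives. Main counts of members past the threshold were 3 at 24 h and 3 at 48 h. They were 5 and 6 with limma voom (40.3% and 43.4% of all genes), 5 and 5 in fits of only the 2 groups compared (36.7% and 41.5%), 5 and 5 at a threshold of 0.1 (34.3% and 40.4%) and 0 and 0 at 0.01 (7.83% and 11.6%). With the 18S share as covariate they were 0 and 0 (0.0% of all genes at both times), and with the mitochondrial share 1 and 0 (12.6% and 0.0%). Camk2b had log2 differences of 0.52 and 0.46 with the first share and 0.63 and 0.62 with the second, against 0.61 and 0.57 without either. With no low-count filter the 48 h count was 1, and the 24 h count of 2 consisted of Camk1 and Camkk1, both lower, which had not passed before. With each mouse left out both counts ran from 0 to 3: at 24 h 0 without vehicle mouse 4 and 1 without vehicle mouse 1, vehicle mouse 3 or 24 h mouse 4, and at 48 h 0 without vehicle mouse 2, vehicle mouse 3 or 48 h mouse 2 and 1 without vehicle mouse 1, vehicle mouse 4, 48 h mouse 3 or 48 h mouse 4. The share of all genes passing was not counted in the fits that left out a mouse. A lower count there cannot be told apart from fewer calls over all genes. With the mouse number as a replicate block 2 members passed at 24 h and 1 (Camk2b) at 48 h, where 20.4% and 26.0% of all genes passed. The numbers do not pair animals, and the deviations of same-numbered mice correlated at -0.0362 on average (-0.282 to 0.244 over 24 pairs). At 7 days the count of 0 became 1 with no filter and ran from 0 to 1 with each mouse left out. From 48 h to 7 days, over the 9 members other than Camk2a, it was 1 with DESeq2 and 0 to 1 with each mouse left out. From 24 h to 7 days it was 1 with DESeq2, 1 with no filter and 0 to 1, and each of these calls was Camk2g.

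The pathway list's 18 calls at 24 h became 0 with the 18S share (0.0% of all genes), 9 with the mitochondrial share (12.6%), 6 at a threshold of 0.01 (7.83%), 9 without 24 h mouse 1 and 48 h mouse 1 together, and 10 to 17 with each mouse left out. Its 23 calls at 48 h became 0 with either share (0.0% of all genes), 10 at 0.01 (11.6%) and 15 to 19 with each mouse left out. The share of all genes was not counted in the fits that left out mice. The list's 0 calls at 7 days became 3 with DESeq2 (796 of all genes), 5 with no filter, 2 at 0.1 and 0 to 5 with each mouse left out. No comparison of the CaMKII make-up without Camk2a passed in any alternative. This is no support for equal shares, since the floor of the exact test keeps a single comparison from passing after adjustment. Scaling by total counts moved the median log2 difference of all genes to 0.14 at 24 h and 0.12 at 48 h, from 0.03 and 0.02. The cause of these shifts was not tested. The 18S share did not overlap between vehicle and the mice at 24 h and 48 h, nor did total counts. The mitochondrial share did not overlap between vehicle and the mice at 48 h. None of these can be told apart from the treatment in those comparisons.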
